A study of Mus musculus with 24 samples.

Results

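Leucine is carried by 5 groups of tRNA genes in the mouse tables analysed here, and 4 of them, the isoacceptors with the anticodons CAG, AAG, TAG and TAA, are described below. The genes were taken by name: every row whose tRNA name ends in LeuCAG, LeuAAG, LeuTAG or LeuTAA was a member, whatever its values. The rule found 26 of 435 tRNA genes, with 10 LeuCAG, 8 LeuAAG, 3 LeuTAG and 5 LeuTAA genes, the last including the mitochondrial gene chrM.tRNA1-LeuTAA. The remaining leucine isoacceptor, LeuCAA, has 4 genes and serves as the nearest comparison.

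A tRNA reads a codon through its anticodon and carries the matching amino acid to the ribosome, and leucine tRNAs belong to the class with a long variable arm. The cytosine-5 methyltransferase NSUN2 places 5-methylcytosine (m5C) in many tRNAs, in the variable region and, in LeuCAA, at the wobble base of the anticodon. The enzyme TET2 turns 5-methylcytosine into 5-hydroxymethylcytosine (hm5C) by oxidation, in DNA and also in RNA. Mature tRNAs are also cut into fragments: tRF3 fragments end at the 3′ end of the tRNA, tRF3a being the shorter and tRF3b the longer kind, and tRF5 fragments begin at its 5′ end. A 3′ fragment of LeuCAG is known in mouse and human cells to support the translation of ribosomal protein mRNAs.

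All 24 libraries came from mouse embryonic stem cells kept on gelatin with serum, LIF and 2 inhibitors, CHIR99021 at 3 µM and PD0325901 at 1 µM. TET2 CLIP (crosslinking and immunoprecipitation of RNA bound to TET2) was done in 2 independent E14 clones, 75 and 65, whose Tet2 gene carries a His-HA tag; each clone had 2 CLIP and 2 input libraries, made after 4 h with 500 µM 4-thiouridine and 400 mJ/cm2 of UVB, so that tag, label and irradiation were shared by CLIP and input. RIP with an antibody to hm5C was done on cells of the strain label B6;129, with 2 hm5C RIP and 2 input libraries. Small RNA of 14 to 38 nt was sequenced from Tet2 KO and WT cells in experiment 1 and from Tet2 KO and E14 cells in experiment 2, with 3 libraries in each group and the strain label B6; 129 throughout. The 2 KO sets are independent, and the experiments also differ in library kit (TruSeq small RNA in experiment 1, NEBNext in experiment 2) and control line, so that set, kit and control line cannot be told apart. How the Tet2 KO was made is not stated in the labels, and the small RNA table lists tRNA fragments alone, so Tet2 itself could not be checked there. The design describes biological replicates.

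The CLIP libraries held 221060 to 453944 counts and their inputs 913002 to 4729463, over 53900 rows of genes and tRNAs. The hm5C RIP libraries held 1564014 to 2100187 counts and their inputs 4641963 to 4889943. The small RNA libraries held 96070 to 173450 tRNA fragment counts each. All 10 pluripotency markers looked at were counted in every CLIP input, at a summed 1632 to 2782 CPM (counts scaled to a common library size), against 36.1 to 45.3 CPM for fibroblast and 3.29 to 12.9 CPM for endoderm markers; in the RIP inputs the same pluripotency markers summed to 37.3 to 42.1 CPM, against 2.86 to 3.66 CPM for fibroblast markers. Of the non-CAA leucine counts, 46 to 143 were in each TET2 CLIP library and 37 to 159 in each CLIP input, 283 to 393 in each hm5C RIP library and 403 to 514 in each RIP input. The fragment libraries held 1625 to 9608 of them, so the fragment values rest on many more reads than the CLIP values.

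Any count at all was found for 16 of the 26 genes in CLIP, for 17 in the RIP, and for 25 in the fragments, where 69 of 78 gene-and-kind rows were counted. RefSeq's GRCm38.p6 annotation places some of the genes unambiguously, wherever 1 gene of an anticodon lies on a chromosome in both lists. The LeuAAG gene chr7.tRNA561-LeuAAG is then at chr7:120917517-120917598, and the LeuTAG genes chr11.tRNA401-LeuTAG and chr14.tRNA709-LeuTAG are at chr11:69124241-69124322 and chr14:51082830-51082911. Each is annotated as a tRNA gene of its own. The 5 annotated LeuCAG genes of chromosome 1 lie within 63.307 kb, between 171038614 and 171101920. The annotated genes of the 4 isoacceptors outside the mitochondrion are 82 to 83 nt long, against 105 to 107 nt for LeuCAA. The mitochondrial gene is 75 nt long.

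TET2 CLIP libraries held more LeuAAG, LeuCAG and LeuTAG reads, relative to depth, than input libraries in both clones, with log2 fold changes on either side of that of LeuCAA. Counts of the genes of an isoacceptor were summed and tested in edgeR's quasi-likelihood model across the whole table, with Benjamini-Hochberg adjustment over all features and a threshold of 0.05; CPM use the normalised library size. In a bulk library a change in the number of cells holding an RNA and a change in its amount per cell cannot be told apart. LeuAAG, whose wobble adenosine is deaminated to inosine in the mature tRNA, had 117.0 and 67.5 CPM in TET2 CLIP of clone 75 and 155.1 and 262.9 CPM in TET2 CLIP of clone 65, against 15.8 and 17.2 CPM in clone 75 inputs and 16.4 and 13.7 CPM in clone 65 inputs. Every CLIP library lay above every input, and the log2 fold change was 3.18 (SE 0.23, adjusted p = 2.52e-12).

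LeuCAG, which reads the CUG codon, had 105.7 and 91.3 CPM in TET2 CLIP of clone 75 and 110.8 and 195.9 CPM in TET2 CLIP of clone 65, against 23.8 and 24.4 CPM in clone 75 inputs and 12.4 and 11.7 CPM in clone 65 inputs. The log2 fold change was 2.86 (SE 0.23, adjusted p = 1.38e-11), with no overlap of CLIP and input. LeuTAG was at 94.5 and 23.8 CPM in TET2 CLIP of clone 75 and at 88.6 and 92.8 CPM in TET2 CLIP of clone 65, against 7.92 and 9.55 CPM in clone 75 inputs and 2.79 and 3.29 CPM in clone 65 inputs. The groups did not overlap here either, although 1 CLIP library of clone 75 rested on 6 counts, and the log2 fold change was 3.86 (SE 0.35, adjusted p = 3.67e-10). LeuTAA had 0 to 2 counts in every CLIP and input library, at or under the floor of 3 counts, and was not tested.

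LeuTAG entered the test through the TET2 CLIP libraries alone, since 0 of 4 inputs reached the filter of 14.6 CPM, so its change is given as a description; LeuAAG reached it in 3 inputs and LeuCAG in 2. All 3 leucine sums tested were called higher, beside 8.66% of all 10291 features of the summed table higher and 5.73% lower. LeuCAA had 148.5 and 111.1 CPM in TET2 CLIP of clone 75 and 238.2 and 278.3 CPM in TET2 CLIP of clone 65, against 44.9 and 36.3 CPM in clone 75 inputs and 12.7 and 17.9 CPM in clone 65 inputs, a log2 fold change of 2.90 (SE 0.19). The log2 ratio of each sum to LeuCAA, which needs no library scaling, averaged -0.59 ± 0.35 in TET2 CLIP and -0.53 ± 0.36 in input for LeuCAG, and -1.43 ± 0.61 in TET2 CLIP and -2.21 ± 0.25 in input for LeuTAG (SD, n = 4 each). LeuTAG had the widest difference, 0.78 (two-sided exact permutation test, p = 0.0857, adjusted over 4 isoacceptors 0.343, smallest possible p 0.0286), and none of the 4 ratios passed the threshold. Labels were permuted over all CLIP and input libraries and not within clones, so differences between clones enter the spread of this test.

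**Figure D1:**
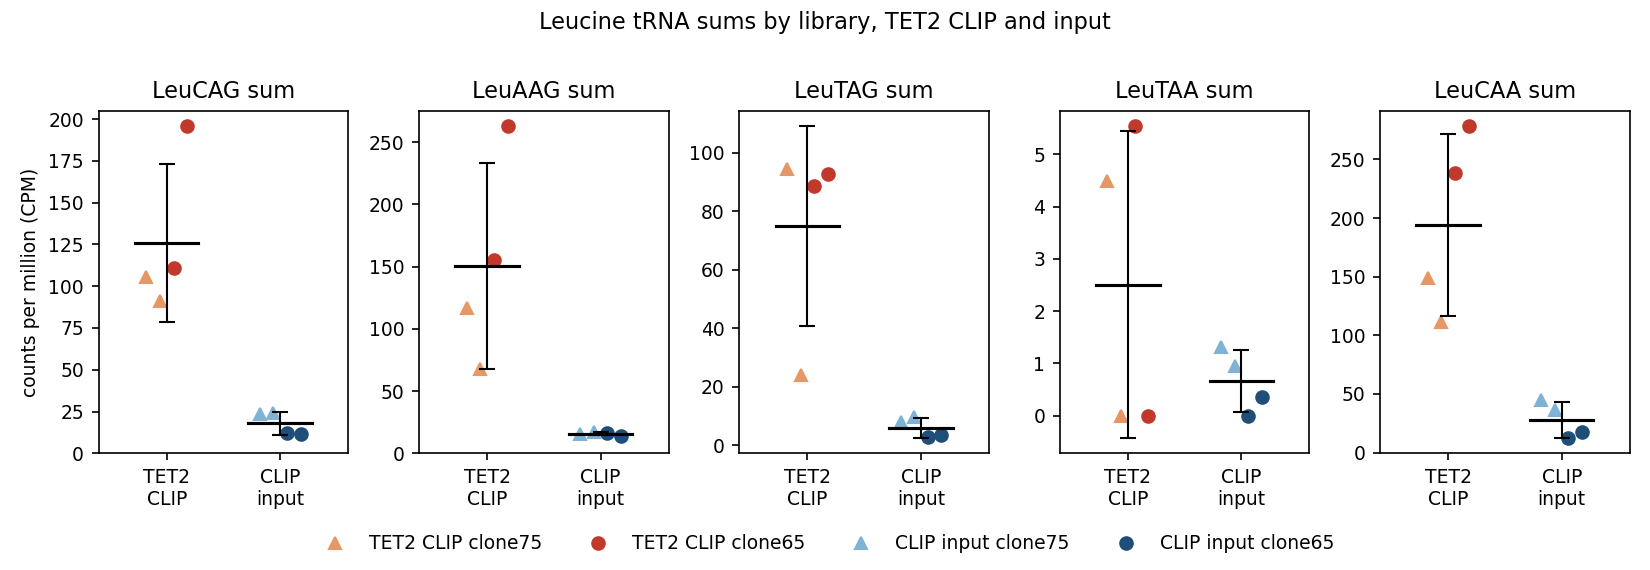
Normalised CPM of the 5 leucine isoacceptors in each TET2 CLIP library (left) and CLIP input library (right), 1 panel per isoacceptor, with triangles for clone 75, circles for clone 65 and bars for the mean ± SD of 4 libraries. LeuAAG averaged 151 CPM in TET2 CLIP and 15.8 CPM in input, and LeuTAA rests on 0 to 2 counts a library; each panel has its own axis.

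Single genes followed their isoacceptors. Of the 26 members, 8 passed the filter on low counts; all 8 passed through the TET2 CLIP libraries alone and 0 through the inputs alone, so they could pass only where CLIP was high. All 8 were higher in TET2 CLIP, where 8.99% of all features and 90.0% of the 80 tRNA genes tested were: the share among the leucine genes is close to that of tRNA genes at large. The log2 fold changes of the 8 ran between 2.34 and 5.14, with a median of 3.85, beside a median of -0.03 over all 10334 features.

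The most counted member was chr13.tRNA62-LeuAAG, with 65.3 and 47.8 CPM in TET2 CLIP of clone 75 and 88.5 and 139 CPM in TET2 CLIP of clone 65, against 9.23 and 10.0 CPM in clone 75 inputs and 6.52 and 6.96 CPM in clone 65 inputs. Its log2 fold change was 3.32 (SE 0.28, adjusted p = 7.65e-11), and it held 171 of the 324 LeuAAG counts over all CLIP and input libraries. The LeuTAG gene chr11.tRNA401-LeuTAG had 65.3 and 7.96 CPM in TET2 CLIP of clone 75 and 55.3 and 56.6 CPM in TET2 CLIP of clone 65, against 5.27 and 2.87 CPM in clone 75 inputs and 1.24 and 0.916 CPM in clone 65 inputs. All CLIP libraries exceeded all inputs, the lowest of them on 2 counts (log2 fold change 4.62, SE 0.50, adjusted p = 1.64e-08).

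Within LeuCAG the fold change varied from gene to gene, a difference that was not tested. The largest change was that of chr1.tRNA698-LeuCAG, with 4 and 11 counts in TET2 CLIP of clone 75 and 4 and 9 counts in TET2 CLIP of clone 65, against 2 and 1 counts in the deeper clone 75 inputs and 1 and 3 counts in the deeper clone 65 inputs, or a mean of 30.3 ± 17.9 CPM in TET2 CLIP and 0.994 ± 1.10 CPM in input (SD, n = 4 each; log2 fold change 5.14, SE 0.68, adjusted p = 6.93e-07). The best counted LeuCAG gene, chr1.tRNA1001-LeuCAG, had 56.3 and 19.9 CPM in TET2 CLIP of clone 75 and 38.7 and 92.5 CPM in TET2 CLIP of clone 65, against 13.2 and 14.3 CPM in clone 75 inputs and 8.08 and 7.69 CPM in clone 65 inputs (2.34, SE 0.34, adjusted p = 3.49e-06). Its groups did not overlap. The remaining genes that rose were chr3.tRNA1026-LeuCAG (4.13), chr7.tRNA561-LeuAAG (4.13), chr14.tRNA709-LeuTAG (3.58) and chr13.tRNA63-LeuAAG (2.38), where the values are log2 fold changes. Without the first clone 75 CLIP library the adjusted p was 0.218 for chr7.tRNA561-LeuAAG and 0.0976 for chr14.tRNA709-LeuTAG, and without the second clone 65 CLIP library it was 0.126 for chr13.tRNA63-LeuAAG.

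Both clones gave the same direction, with smaller log2 fold changes in clone 75 that passed a test of the difference for LeuCAG. The log2 fold change of TET2 CLIP over input was 2.54 in clone 75 and 3.82 in clone 65 for LeuAAG, 2.05 in clone 75 and 3.68 in clone 65 for LeuCAG, and 2.88 in clone 75 and 4.84 in clone 65 for LeuTAG. All 3 sums passed the test in each clone, LeuTAG with the limit on its entry given above, beside 5.89% of features higher and 3.93% lower in clone 75 and 7.93% higher in clone 65. Without the first clone 75 CLIP library, LeuTAG in clone 75 was at 1.29 (adjusted p = 0.472). The difference between clones (75 minus 65) passed for LeuCAG alone, at -1.63 (SE 0.43, adjusted p = 0.0304), beside 2.25% of features lower; LeuAAG was at -1.28 (SE 0.45, adjusted p = 0.140) and LeuTAG at -1.95 (SE 0.68, adjusted p = 0.137). The LeuCAG call did not hold with scaling by library size (-1.06, adjusted p = 0.129), a scaling that moved the median of all features by 0.57, nor on leaving out 5 of the 8 libraries, one at a time (adjusted p 0.064 to 0.315). LeuTAG passed when the first clone 75 CLIP library was left out (-3.42, adjusted p = 0.00679), and so did LeuAAG (-1.79, adjusted p = 0.0453), which also passed without the first clone 65 CLIP library (-1.52, adjusted p = 0.0476). LeuCAA differed by -2.23 between the clones (adjusted p = 0.000156).

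The 8 single genes, which entered the test through TET2 CLIP alone, were all higher in each clone, a count that their entry favours and that supports nothing by itself, beside 6.22% of features in clone 75, where 70.0% of tRNA genes were higher, and 8.21% in clone 65, where 82.5% of tRNA genes were. The median log2 fold change was 2.97 in clone 75 and 4.58 in clone 65. The clone 75 count rested on few libraries: it was 1 without the second clone 75 input, 2 without the first clone 65 input or the first clone 75 CLIP library, and 3 without the first clone 75 input or the second clone 65 input. In clone 65 the count was 4 without the second clone 65 CLIP library and 5 without the first clone 65 input. The difference between clones was negative for all 8, from -2.06 to -0.55, and 0 passed edgeR's test, with 2 at an unadjusted p under 0.05 and 0 called by DESeq2's Wald test; 2.22% of all features and 7.50% of tRNA genes were lower in that comparison.

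Immunoprecipitation with the hm5C antibody gave unequal results among the isoacceptors. LeuCAG rose and LeuAAG fell against input, LeuTAG and LeuTAA did not pass the test, and all 4 lay far below LeuCAA in enrichment. LeuCAG had 105.8 and 124.4 CPM in hm5C RIP, against 59.4 and 66.2 CPM in RIP input, a log2 fold change of 0.87 (SE 0.24, adjusted p = 0.0074). LeuAAG had 12.5 and 8.94 CPM in hm5C RIP, on 22 and 21 counts, against 23.4 and 22.9 CPM in RIP input, on 92 and 101 counts (-1.12, SE 0.38, adjusted p = 0.0226). In neither did the groups overlap. With 1 of 4 sums higher and 1 lower, the shares stand beside 32.6% of all 2008 features higher and 22.3% lower.

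LeuTAG had 37.0 and 30.2 CPM in hm5C RIP, against 16.0 and 22.9 CPM in RIP input (0.78, SE 0.33, adjusted p = 0.0608). LeuTAA had 5.69 and 3.83 CPM in hm5C RIP, against 3.82 and 4.53 CPM in RIP input, with overlapping groups (0.16, SE 0.57, adjusted p = 0.835). LeuCAA, by contrast, had 51.2 and 65.6 CPM in hm5C RIP, against 10.2 and 7.03 CPM in RIP input (2.76, SE 0.33, adjusted p = 2.03e-05). The ratio to LeuCAA was lower in hm5C RIP than in input for each of the 4: the difference on the log2 scale was -3.87 for LeuAAG, -2.56 for LeuTAA, -1.96 for LeuTAG and -1.89 for LeuCAG. No library of hm5C RIP overlapped an input in these ratios, and an exact permutation test of 2 against 2 libraries cannot go below p = 0.333.

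A single feature took much of the hm5C RIP libraries: Acsl6, whose product activates long-chain fatty acids, held 55.2% and 60.6% of the hm5C RIP counts, against 0.255% and 0.167% of the RIP input counts. As a share of the counts left without Acsl6, the 26 members together were at 0.0404% and 0.0475% in hm5C RIP, against 0.00870% and 0.0105% in RIP input. The direction of LeuAAG turned with this choice: without Acsl6 and scaled by library size it was at 0.51 (adjusted p = 0.288), and scaled by library size with Acsl6 kept it was at -0.75 (adjusted p = 0.126). LeuTAG was then called higher (2.41 without Acsl6, 1.14 with it). Leaving out either RIP input ended the LeuCAG call (adjusted p = 0.369 and 0.314) and the LeuAAG call (adjusted p = 0.156 and 0.101), and LeuAAG was also lost without the second hm5C RIP library (-0.66, adjusted p = 0.11).

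**Figure D2:**
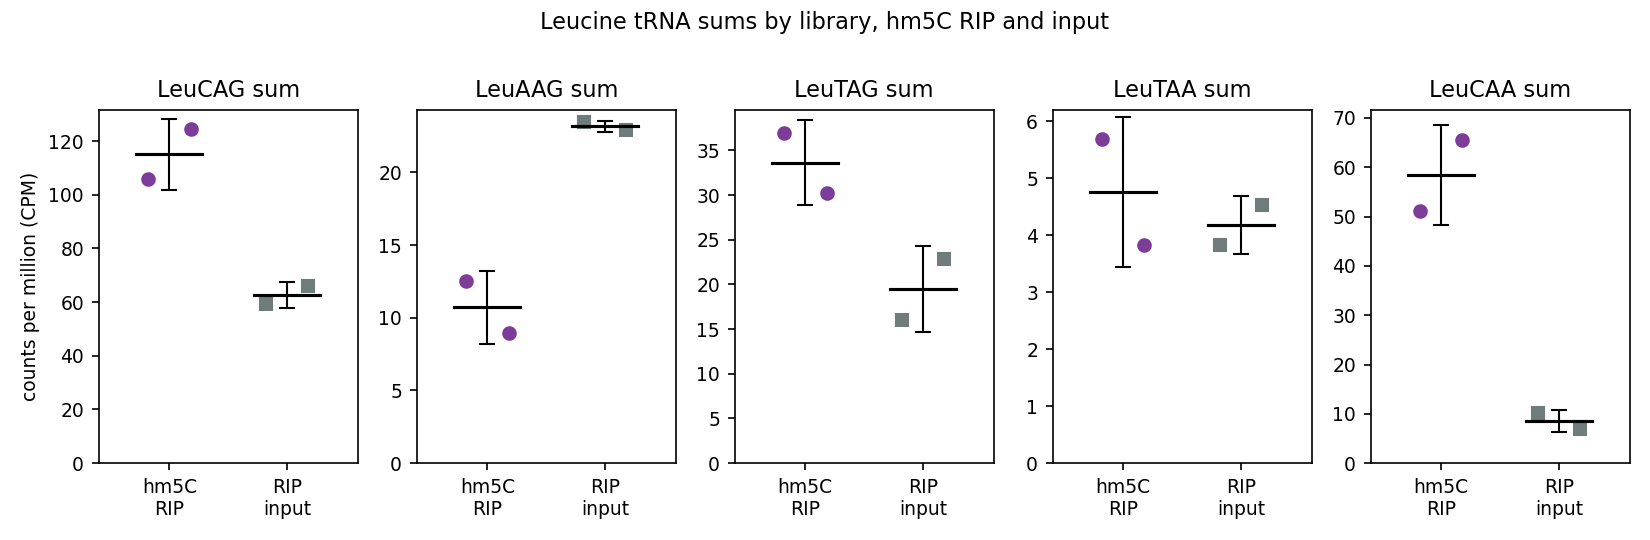
Normalised CPM of the 5 leucine isoacceptors in each hm5C RIP library (left) and RIP input library (right), with bars for the mean ± SD of 2 libraries. LeuCAG averaged 115 CPM in hm5C RIP and 62.8 CPM in RIP input, LeuAAG 10.7 CPM in hm5C RIP and 23.2 CPM in RIP input.

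Among the 8 genes tested one by one in the RIP, 2 were higher and 0 lower, beside 33.0% of all 2081 features higher and 18.9% lower and 18.8% of tRNA genes in each direction; 1 was lower at an unadjusted p under 0.05, and DESeq2's Wald test also called 0 lower. All 8 reached the count filter through the RIP inputs alone, and 4 through the hm5C RIP libraries alone. The rest could pass only where input was high, an entry that favours lower values. The median log2 fold change of the 8, -0.36 beside 0.15 over all features, is therefore given as a description. The gene chr8.tRNA1013-LeuCAG, which held 683 of the 1003 LeuCAG counts of the RIP table, had 86.5 and 93.7 CPM in hm5C RIP, against 33.4 and 39.8 CPM in RIP input (1.30, SE 0.25, adjusted p = 0.00349). The LeuTAG gene chr14.tRNA709-LeuTAG had 34.7 and 27.0 CPM in hm5C RIP, against 10.2 and 13.8 CPM in RIP input (1.35, SE 0.34, adjusted p = 0.0116). For both, every hm5C RIP library was above both inputs, and neither call held without either RIP input (adjusted p 0.0918 to 0.398) or with no filter on low counts (adjusted p = 0.255 and 0.474).

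The other copies did not pass the test. The most counted LeuAAG gene, chr7.tRNA561-LeuAAG, had 6.55 and 4.56 CPM in hm5C RIP, against 12.6 and 11.5 CPM in RIP input (-1.14, adjusted p = 0.0552). The LeuCAG gene chr1.tRNA1001-LeuCAG, first among LeuCAG genes in the CLIP table, had 27.5 and 16.2 CPM in hm5C RIP, against 17.2 and 16.4 CPM in RIP input, and its groups overlapped. The 4 LeuCAA genes were all called higher, at log2 fold changes between 2.21 and 3.39.

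In the small RNA libraries most non-CAA leucine fragment counts stood in the 3′ rows of LeuCAG. Part of these counts cannot be told apart from those of LeuCAA, as described below. Over the 12 libraries LeuCAG gave 21192 tRF3a, 14551 tRF3b and 1010 tRF5 reads, LeuAAG 3403 tRF3a, 457 tRF3b and 1185 tRF5 reads, LeuTAG 2016, 262 and 892, and LeuTAA 1070, 788 and 1055 in the same order of kinds. Of the LeuTAA tRF5 reads, 763 came from the mitochondrial gene chrM.tRNA1-LeuTAA.

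Many gene copies had near-equal counts of 3′ fragments and unequal counts of 5′ fragments. The 3′ counts lay at 2 levels within LeuCAG, a division made after seeing the values and given as a description: chr1.tRNA698-LeuCAG, chr8.tRNA1013-LeuCAG and chr8.tRNA416-LeuCAG stood with the 4 LeuCAA genes at 5251 to 5417 tRF3a reads each, and the other 7 LeuCAG genes at 713 to 789. The spread of the first level was that of sampling noise (chi-square per degree of freedom 0.993), so tRF3a counts of these 3 LeuCAG genes cannot be told apart from those of LeuCAA genes. In tRF3b the same 7 genes had 2820 to 3126 reads each (1.13), while their tRF5 counts ran between 65 and 367 (8.56). The 5 LeuAAG genes with most reads had 642 to 717 tRF3a reads each (1.38), and the 3 LeuTAG genes 643 to 710 (2.68). Taken as 1 set, these 8 genes had 642 to 717 tRF3a reads each (1.66). How reads that match several copies were counted is not given in the sources used here. LeuCAG and LeuCAA sums may therefore share reads, and so may LeuAAG and LeuTAG sums. Gene copies are not independent replicates of one another.

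**Figure D3:**
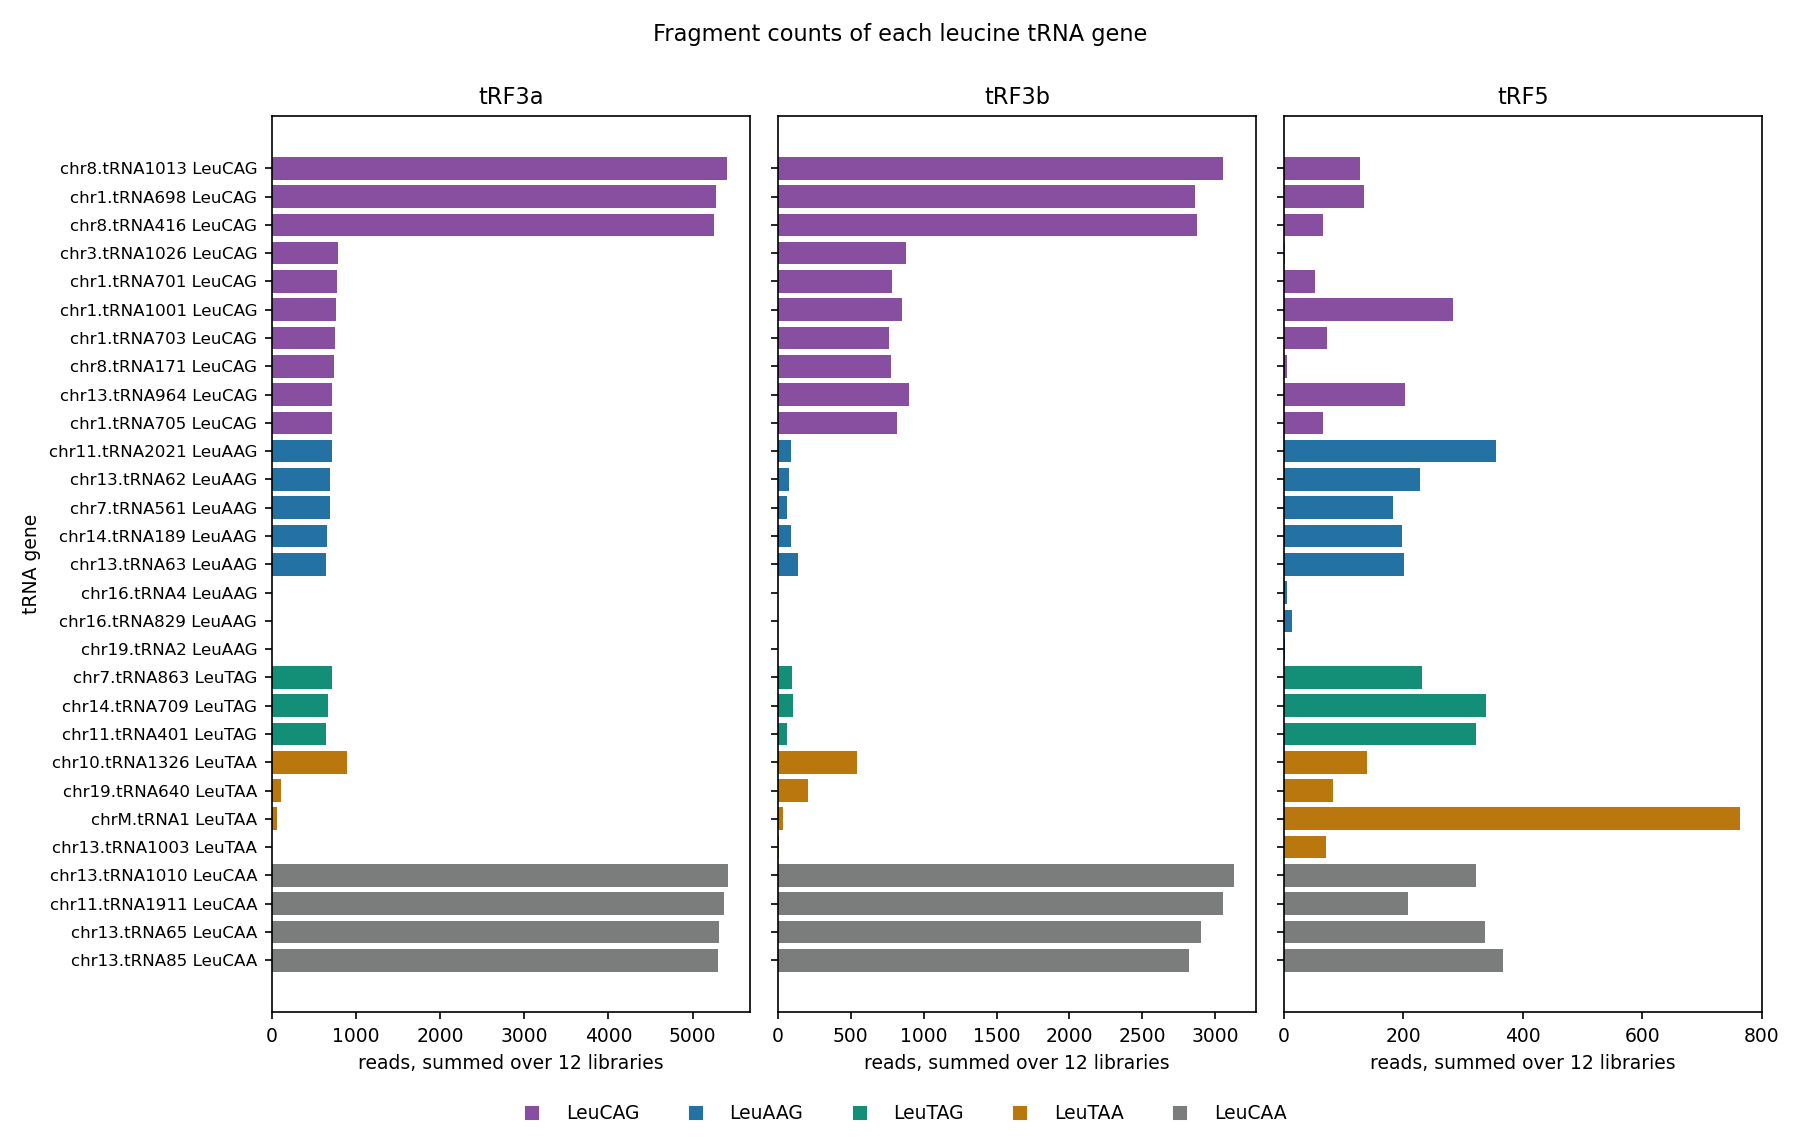
Reads summed over the 12 small RNA libraries for each leucine tRNA gene (bars, coloured by isoacceptor), with 1 panel per fragment kind and a linear axis from 0. In tRF3a the 3 upper LeuCAG genes and the 4 LeuCAA genes share 1 level, 5251 to 5417 reads, and the other LeuCAG genes a lower one, 713 to 789 reads.

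Tet2 KO cells of experiment 1 had more 3′ fragments of LeuCAG, LeuAAG and LeuTAG than WT cells, and fewer LeuAAG 5′ fragments; LeuTAA passed in neither direction. CPM of the fragments use the normalised library size, as in CLIP, and not the total of all tRNA fragment counts. Scaled by that total instead, LeuCAG tRF3a was at 28876, 25667 and 25596 CPM in KO cells, against 4793, 10414 and 10972 CPM in WT cells, in order of replicate. Members made up 6.80 ± 0.154% of all fragment counts in KO cells and 2.77 ± 0.915% in WT cells (SD, n = 3 each). LeuCAG tRF3a was at 24253, 19818 and 22466 CPM in KO cells, against 8199.8, 10897 and 10793 CPM in WT cells, and every KO library lay above every WT library (log2 fold change 1.15, SE 0.19, adjusted p = 0.000154). LeuAAG tRF3a was at 4497, 4110 and 3837 CPM in KO cells, against 1735, 1734 and 2106 CPM in WT cells (1.16, SE 0.17, adjusted p = 7.57e-05). LeuTAG tRF3a was at 2474, 2381 and 2238 CPM in KO cells, against 1229, 1055 and 1250 CPM in WT cells (1.01, SE 0.16, adjusted p = 0.000144). These groups did not overlap, while those of LeuTAA tRF3a did, at 1438, 1177 and 1014 CPM in KO cells, against 1250, 788.8 and 1203 CPM in WT cells (0.17, SE 0.20, adjusted p = 0.478).

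LeuCAG, LeuAAG and LeuTAG also rose in the longer tRF3b fragments. LeuCAG tRF3b had 21072, 20204 and 24229 CPM in KO cells, against 12021, 14666 and 12579 CPM in WT cells (0.74, SE 0.18, adjusted p = 0.00395). LeuAAG tRF3b was at 0.75 (SE 0.22, adjusted p = 0.0112) and LeuTAG tRF3b at 0.74 (SE 0.27, adjusted p = 0.0295), the second on 169.2 to 377.8 CPM. The LeuTAG tRF3b call was lost on leaving out any 1 KO library or WT replicate 3 (adjusted p 0.0516 to 0.112). LeuTAA tRF3b was at 0.46 (adjusted p = 0.0704).

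Among 5′ fragments LeuAAG fell, with 463.1, 512.1 and 520.8 CPM in KO cells, against 877.8, 898.9 and 996.6 CPM in WT cells (-0.89, SE 0.20, adjusted p = 0.00216). The groups were well apart, but with scaling by library size the change was -0.39 (adjusted p = 0.394). That scaling moved the median of all fragments by 0.46 in experiment 1; the first WT library had a normalisation factor of 0.592 and the other 5 libraries 1.00 to 1.22. LeuCAG tRF5 was at -0.22 (adjusted p = 0.314), LeuTAG tRF5 at -0.54 (adjusted p = 0.0700) and LeuTAA tRF5 at -0.40 (adjusted p = 0.0818).

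Of the 12 sums 6 were higher and 1 lower, beside 25.9% of all 135 sums higher and 20.7% lower. The kinds differed in this across all tRNAs: 45.5% of tRF3a sums and 31.1% of tRF3b sums were higher, and 39.1% of tRF5 sums were lower. Of the 4 leucine sums of each kind, 3 were higher in tRF3a, 3 higher in tRF3b and 1 lower in tRF5. LeuCAA was at 1.32 in tRF3a, 0.78 in tRF3b and -0.18 in tRF5, in log2 fold change.

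**Figure D4:**
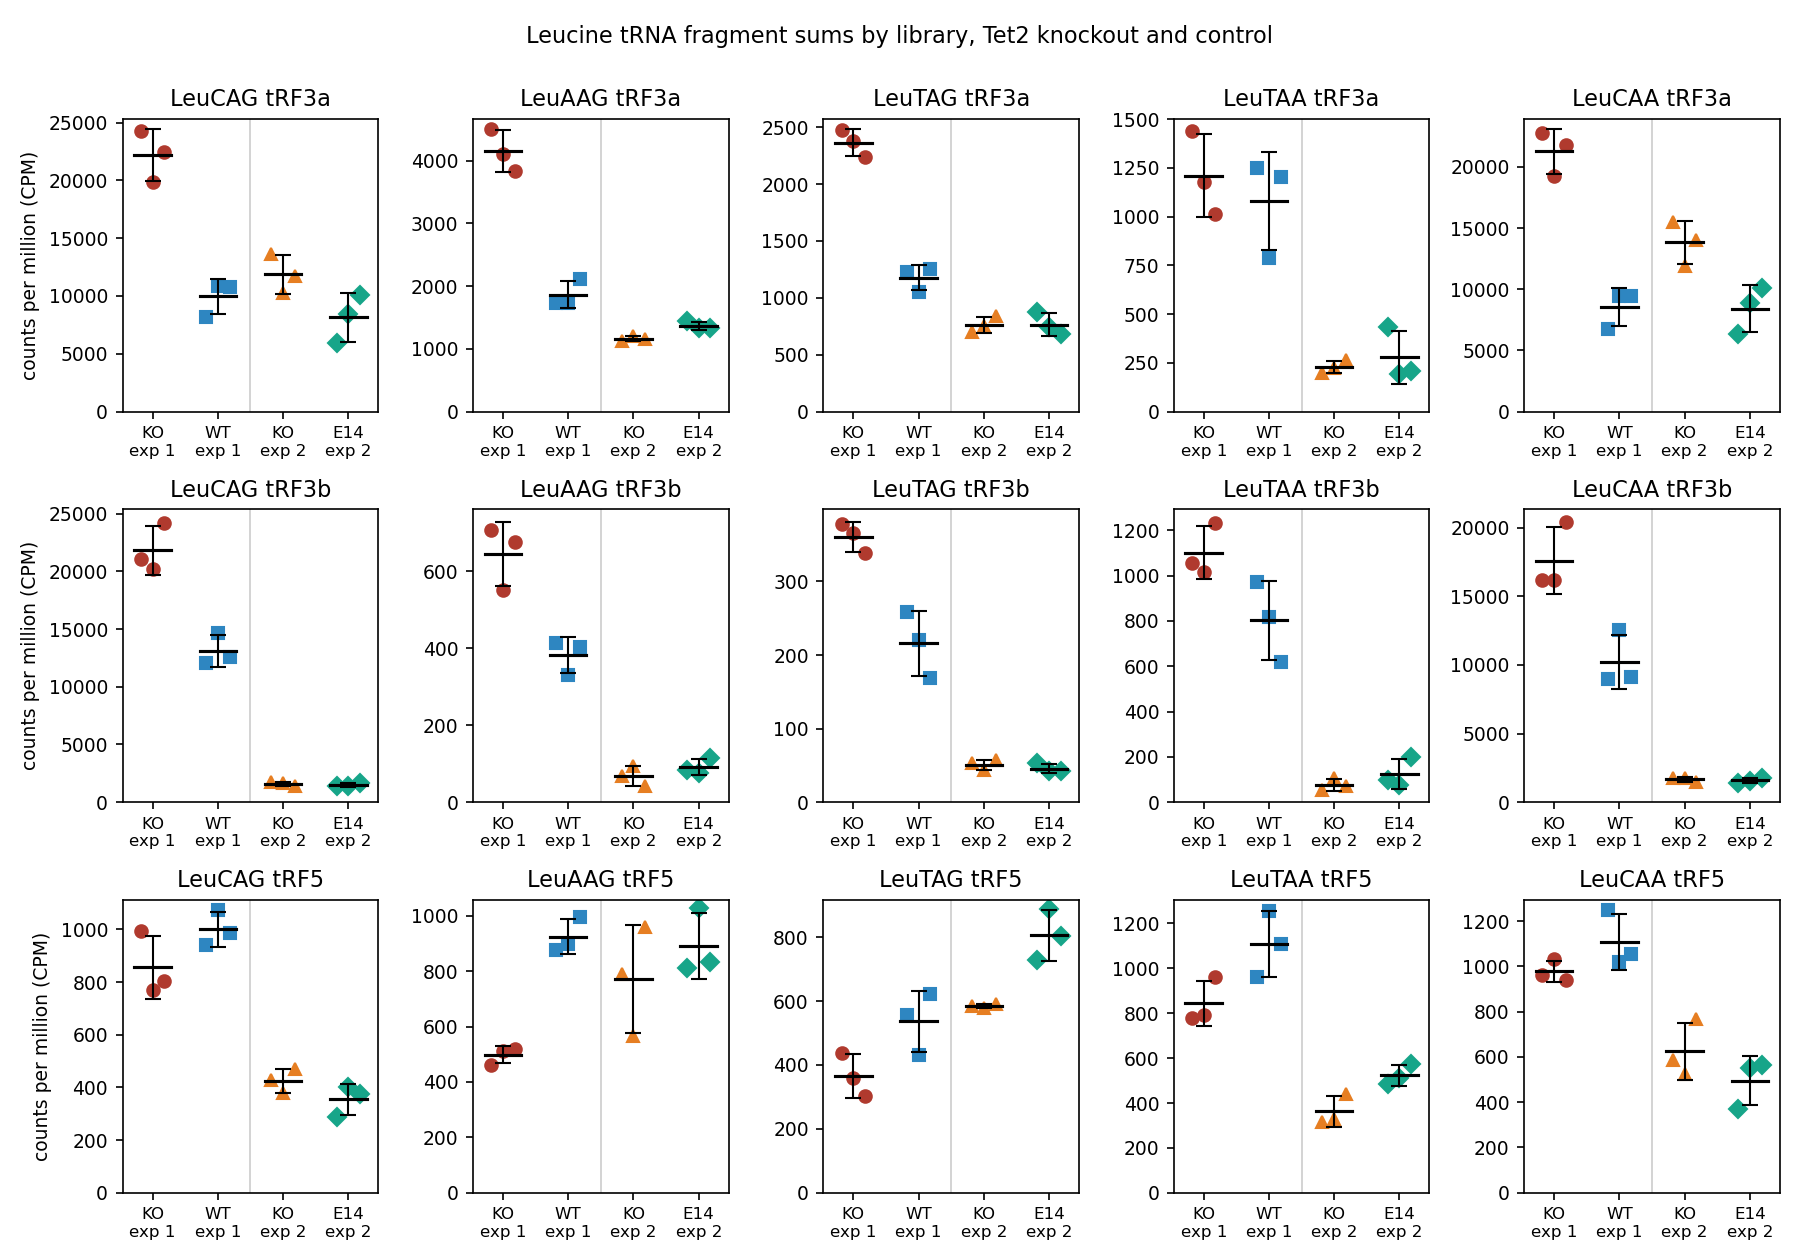
Normalised CPM of the 5 leucine isoacceptors (columns) in tRF3a, tRF3b and tRF5 fragments (rows), by library, in the order Tet2 KO and WT of experiment 1, then Tet2 KO and E14 of experiment 2, with bars for the mean ± SD of 3 libraries. LeuAAG tRF3a averaged 4148 CPM in KO and 1858 CPM in WT cells of experiment 1, and 1163 CPM in KO and 1365 CPM in E14 cells of experiment 2.

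Single genes were counted in the same way. In experiment 1, 50 gene-and-kind rows passed the filter, 38 of them through the WT libraries alone and 47 through the KO libraries alone. Of these, 29 were higher and 2 lower in KO cells, beside 21.2% of all 598 rows higher and 16.7% lower, with a median log2 fold change of 0.81 beside 0.04; without the first WT library 6 were lower. In tRF3a 18 of 20 rows were higher (45.1% of all tRF3a rows), comprising 10 of 10 LeuCAG, 5 of 5 LeuAAG, 3 of 3 LeuTAG and 0 of 2 LeuTAA genes. In tRF3b 11 of 17 were higher (22.3% of all tRF3b rows), 10 of them LeuCAG. In tRF5 2 of 13 were lower (34.8% of all tRF5 rows). Copies whose 3′ reads cannot be told apart carry much of these counts.

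The smallest adjusted p among members belonged to LeuAAG and LeuCAG genes. The gene chr7.tRNA561-LeuAAG had 948.3, 966.9 and 919.3 CPM of tRF3a in KO cells, against 257.7, 266.5 and 396.7 CPM in WT cells (log2 fold change 1.62, SE 0.22, adjusted p = 0.00384). The gene chr8.tRNA1013-LeuCAG had 6052, 5314 and 5432 CPM of tRF3a in KO cells, against 1793, 2372 and 2125 CPM in WT cells (1.42, SE 0.20, adjusted p = 0.00384). Both sets of KO libraries were close together and well above WT. For LeuTAG, chr14.tRNA709-LeuTAG had 923.3, 866.6 and 594.3 CPM of tRF3a in KO cells, against 247.4, 239.9 and 311.7 CPM in WT cells (1.58, SE 0.24, adjusted p = 0.00407). The 2 tRF5 rows that fell were chr13.tRNA1003-LeuTAA and chr11.tRNA2021-LeuAAG. The first had 0, 1 and 2 counts in KO cells, against 15, 11 and 13 counts in WT cells (-3.89, SE 0.67, adjusted p = 0.00533), a KO to WT ratio of 0.0596 (95% counting interval 0.0118 to 0.187); this row reached the filter in 3 WT and 0 KO libraries, so it could enter the test only where WT was high, and its fall is given as a description. The second was at 205.9, 143.2 and 232.2 CPM in KO cells, against 257.7, 355.4 and 491.2 CPM in WT cells (-0.93, SE 0.30, adjusted p = 0.0371), a call lost with scaling by library size (adjusted p = 0.292) and on leaving out 5 of the 6 libraries, one at a time.

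In experiment 2 no sum of non-CAA leucine fragments passed the test between KO and E14 cells, and among single genes 3 LeuCAG rows rose and 1 LeuTAG row fell. Members made up 1.97 ± 0.201% of fragment counts in KO cells and 1.35 ± 0.128% in E14 cells (SD, n = 3 each). LeuCAG tRF3a was at 13656, 10243 and 11689 CPM in KO cells, against 5908, 8460 and 10105 CPM in E14 cells; all KO libraries were above all E14 libraries, yet the test was not passed (0.54, SE 0.20, adjusted p = 0.109). It was passed with scaling by library size (0.83, adjusted p = 0.00765) and without KO replicate 2 or 3 (adjusted p = 0.0292 and 0.04). LeuAAG tRF3a was at 1122, 1208 and 1158 CPM in KO cells, against 1439, 1330 and 1324 CPM in E14 cells (-0.23, SE 0.18, adjusted p = 0.451). LeuTAG tRF3a was at 695.5, 753.4 and 838 CPM in KO cells, against 871, 744.7 and 677.9 CPM in E14 cells (-0.01, adjusted p = 0.978). The 2 groups overlapped for LeuTAG and stood apart for LeuAAG, with KO below E14.

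The remaining sums of experiment 2 were close to their controls or lower without passing. LeuTAG tRF5 had 584.8, 579.1 and 589.4 CPM in KO cells, against 727.1, 887 and 803 CPM in E14 cells (-0.46, adjusted p = 0.129). LeuTAA tRF5 had 316.1, 330 and 440.3 CPM in KO cells, against 484.7, 510.4 and 573.6 CPM in E14 cells (-0.53, adjusted p = 0.128). In both, each KO library lay below each E14 library. Of the 11 sums tested, 0 passed edgeR's test in either direction, where an unadjusted p under 0.05 was reached by 1 sum that was higher and 2 that were lower, beside 6.50% of all 123 sums called higher and 4.88% lower; no other tool was run on the sums. LeuTAG tRF3b, with 4 to 10 counts a library, was not tested.

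Of 34 rows of single genes tested in experiment 2, 3 were higher and 1 lower, beside 9.64% of 498 rows higher and 5.42% lower; in tRF3a this was 3 of 19 rows higher, beside 20.6% of all tRF3a rows, and in tRF5 1 of 11 lower, beside 14.4%. The 3 that rose were tRF3a of the LeuCAG genes whose counts match those of LeuCAA: chr8.tRNA416-LeuCAG, chr8.tRNA1013-LeuCAG and chr1.tRNA698-LeuCAG. For chr8.tRNA1013-LeuCAG the values were 4660, 3005 and 3292 CPM in KO cells, against 1688, 2092 and 2553 CPM in E14 cells (0.79, SE 0.17, adjusted p = 0.000392; without the first KO library 0.56, adjusted p = 0.0628). The other 7 LeuCAG genes were between 0.06 and 0.61, with adjusted p from 0.207 to 0.949, while the 4 LeuCAA genes were between 0.84 and 0.98 and all called. The row that fell was tRF5 of chr14.tRNA709-LeuTAG, at 126.1, 130.7 and 100.4 CPM in KO cells, against 186.6, 316 and 230.3 CPM in E14 cells (-1.03, SE 0.38, adjusted p = 0.0447), lost with scaling by library size (adjusted p = 0.114) and on leaving out single libraries (adjusted p up to 0.361). Of the 29 rows higher in experiment 1, chr7.tRNA561-LeuAAG tRF3a, first by adjusted p there, was at -0.24 here (adjusted p = 0.726).

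The difference between the experiments was tested as an interaction (experiment 2 minus experiment 1). LeuAAG tRF3a changed by -0.23 in experiment 2 and by 1.16 in experiment 1, each in its own fit, and the difference in the joint fit was -1.33 (SE 0.26, adjusted p = 0.00191). LeuTAG tRF3a changed by -0.01 in experiment 2 and by 1.01 in experiment 1, with a difference of -0.96 (SE 0.26, adjusted p = 0.0166; without the first E14 library -0.66, adjusted p = 0.0786). LeuCAG tRF3a, at 0.54 in experiment 2 and 1.15 in experiment 1, did not differ past the threshold (-0.53, adjusted p = 0.179), but did on leaving out WT replicate 2 (-1.14, adjusted p = 0.0153) or any 1 KO library of experiment 1 (-1.11 to -1.01, adjusted p 0.0285 to 0.0433). LeuAAG and LeuTAG, whose tRF3a sums may share reads, were the 2 of 12 sums called lower. Beside them stood 8.03% of all sums lower and 15.3% higher and, among tRF3a sums, 20.5% lower and 29.5% higher. Kit, KO set and control line changed together between the experiments, and their parts in the difference cannot be told apart.

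For single genes in the difference, 21 of 55 rows were lower and 1 higher, beside 13.8% lower and 2.58% higher of all rows, and the median was -1.05 for members and -0.39 for all rows. This count depended on the libraries: it was 1 on leaving out any 1 E14 library, or KO replicate 2 or 3 of experiment 2, 3 without KO replicate 1 of experiment 2, 6 without WT replicate 1 and 12 without KO replicate 3 of experiment 1. With scaling by library size 1 row was lower, a scaling that moved the median of all rows by 0.19. The row that was higher was tRF5 of chr13.tRNA1003-LeuTAA (3.88, adjusted p = 0.00515), which reached the filter in the 3 WT libraries alone, with 7, 6 and 6 counts in KO and 3, 2 and 5 counts in E14 cells of experiment 2, and 0, 1 and 2 counts in KO and 15, 11 and 13 counts in WT cells of experiment 1.

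With the experiments joined in 1 fit of group means, the KO minus control differences of both experiments were averaged. By that average 4 of 12 sums were higher and 3 lower in KO cells, beside 16.1% and 19.0% of all 137 sums. Among tRF3a sums 40.9% were higher and among tRF5 sums 36.2% lower. The 4 were tRF3a of LeuCAG (0.88, adjusted p = 0.000207), LeuTAG (0.51, adjusted p = 0.00511) and LeuAAG (0.49, adjusted p = 0.00758) and tRF3b of LeuCAG (0.45, adjusted p = 0.0100). For LeuAAG and LeuTAG the average joins experiments that differed. The 3 that were lower were tRF5 of LeuAAG (-0.54, adjusted p = 0.00565), LeuTAA (-0.45, adjusted p = 0.0113) and LeuTAG (-0.47, adjusted p = 0.0188), none of them called with scaling by library size (-0.17, -0.10 and -0.10). Within LeuTAA, the tRF5 row of the mitochondrial gene was at -0.02 in the joined fit of single rows. Of the single rows, 19 of 55 were higher and 2 lower, beside 17.3% and 7.88% of 698 rows. Of the 55, 45 reached the filter through the control libraries alone and 52 through the KO libraries alone. Rows that needed KO libraries to enter favour higher values, so the count is given as a description. Among the higher rows 16 were tRF3a, a kind in which 40.9% of sums were higher across all tRNAs. The count of higher rows was 12 without the first KO library of experiment 2.

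Set against LeuCAA within each library, all 4 isoacceptors were lower in KO cells when the fragment kinds were added. The mean log2 ratio of LeuTAA to LeuCAA was -4.12 in KO cells and -3.10 in control cells, and permuting labels within experiments gave a difference of -1.02 with p = 0.005, the smallest an exact test over 400 relabelings can give. The LeuTAA sum includes the mitochondrial gene. The difference was -0.588 for LeuTAG (p = 0.015), -0.568 for LeuAAG (p = 0.015) and -0.126 for LeuCAG (p = 0.01), each with an adjusted p of 0.015 over 4 in the two-sided exact permutation test. By experiment, KO minus control was -1.11 in experiment 2 and -0.935 in experiment 1 for LeuTAA, with no overlap in either. For LeuAAG it was -0.867 in experiment 2, without overlap, and -0.269 in experiment 1, with overlap, and for LeuTAG -0.845 in experiment 2, without overlap, and -0.331 in experiment 1, with overlap. The LeuCAG and LeuCAA sums may share reads, and their ratio differed by -0.143 in experiment 2 and by -0.109 in experiment 1. Differences by kind were not tested. In tRF3a and tRF5 the mean of all 4 ratios was lower in KO cells in both experiments, but not always without overlap. In experiment 1 KO and WT libraries overlapped for LeuAAG and LeuTAG tRF3a and for LeuCAG, LeuTAG and LeuTAA tRF5. In experiment 2 KO and E14 libraries overlapped for LeuCAG tRF5 alone. LeuCAG tRF5 differed by -0.07 in experiment 2 and by -0.06 in experiment 1. In tRF3b of experiment 1 the difference was -0.05 for LeuCAG, LeuAAG and LeuTAG, with overlap, and -0.32 for LeuTAA, without. In tRF3b of experiment 2 it was 0.01 for LeuCAG, 0.03 for LeuTAG, -0.55 for LeuAAG and -0.71 for LeuTAA, all with overlap.

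Added together, the rows of leucine tRNAs other than CAA held mostly 3′ fragments. That share was set largely by the LeuCAG rows, which may share reads with LeuCAA. Of all their reads, tRF3a made up 53.0 ± 2.69% in KO and 43.8 ± 2.58% in WT cells of experiment 1, and 78.0 ± 1.29% in KO and 70.8 ± 1.90% in E14 cells of experiment 2. Their tRF5 share was 4.55 ± 0.133% in KO and 11.1 ± 0.355% in WT cells of experiment 1, and 11.97 ± 1.52% in KO and 17.4 ± 1.89% in E14 cells of experiment 2 (SD, n = 3 each). Over all tRNAs tRF5 was the main kind, at 51.5% in KO and 75.5% in WT cells of experiment 1 and 78.6% in KO and 84.2% in E14 cells of experiment 2. By isoacceptor, tRF5 made up 1.91% of LeuCAG reads in KO and 4.17% in WT cells of experiment 1, and 3.09% in KO and 3.6% in E14 cells of experiment 2. LeuCAA was also low, at 2.47% in KO and 5.72% in WT cells of experiment 1, and 3.89% in KO and 4.72% in E14 cells of experiment 2. LeuTAG was at 11.8% in KO and 27.7% in WT cells of experiment 1, and at 41.9% in KO and 49.9% in E14 cells of experiment 2. For LeuTAA, tRF5 was the main kind in experiment 2, with 54.1% in KO and 57.3% in E14 cells, beside 26.8% in KO and 37.3% in WT cells of experiment 1. The mitochondrial gene held 763 of the 1055 LeuTAA tRF5 reads over all small RNA libraries. For LeuAAG, tRF3a was 78.3% of its reads in KO and 58.6% in WT cells of experiment 1, and 58.3% in KO and 58.2% in E14 cells of experiment 2.

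The mitochondrial leucine tRNA gave mostly 5′ fragments. For chrM.tRNA1-LeuTAA, tRF5 was at 655.1, 623.1 and 845 CPM in KO and 587.5, 693 and 557.3 CPM in WT cells of experiment 1 (0.20, not called), and at 276.2, 248.3 and 358.6 CPM in KO and 446.3, 391.3 and 431.9 CPM in E14 cells of experiment 2 (-0.53, adjusted p = 0.227). KO libraries lay below E14 in experiment 2 and overlapped WT in experiment 1, and the difference between experiments was -1.25 (adjusted p = 0.0366). Over the 12 fits that left out 1 library this difference ran from -1.44 to -0.65, and the call was lost in 10. The median over all rows was -0.39 in the joint fit. The CLIP and RIP tables also list this tRNA under its gene symbol mt-Tl1, as a row of its own. By that row mt-Tl1 was higher in TET2 CLIP (1.62, adjusted p = 2.09e-08) and lower in hm5C RIP (-0.90, adjusted p = 0.0198). The RIP value rested on 118 to 144 counts in hm5C RIP and 531 to 596 in RIP input. It was not computed again without Acsl6, which held 55.2% and 60.6% of the hm5C RIP counts. Whether the direction of mt-Tl1 depends on Acsl6 was therefore not tested.

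**Figure D5:**
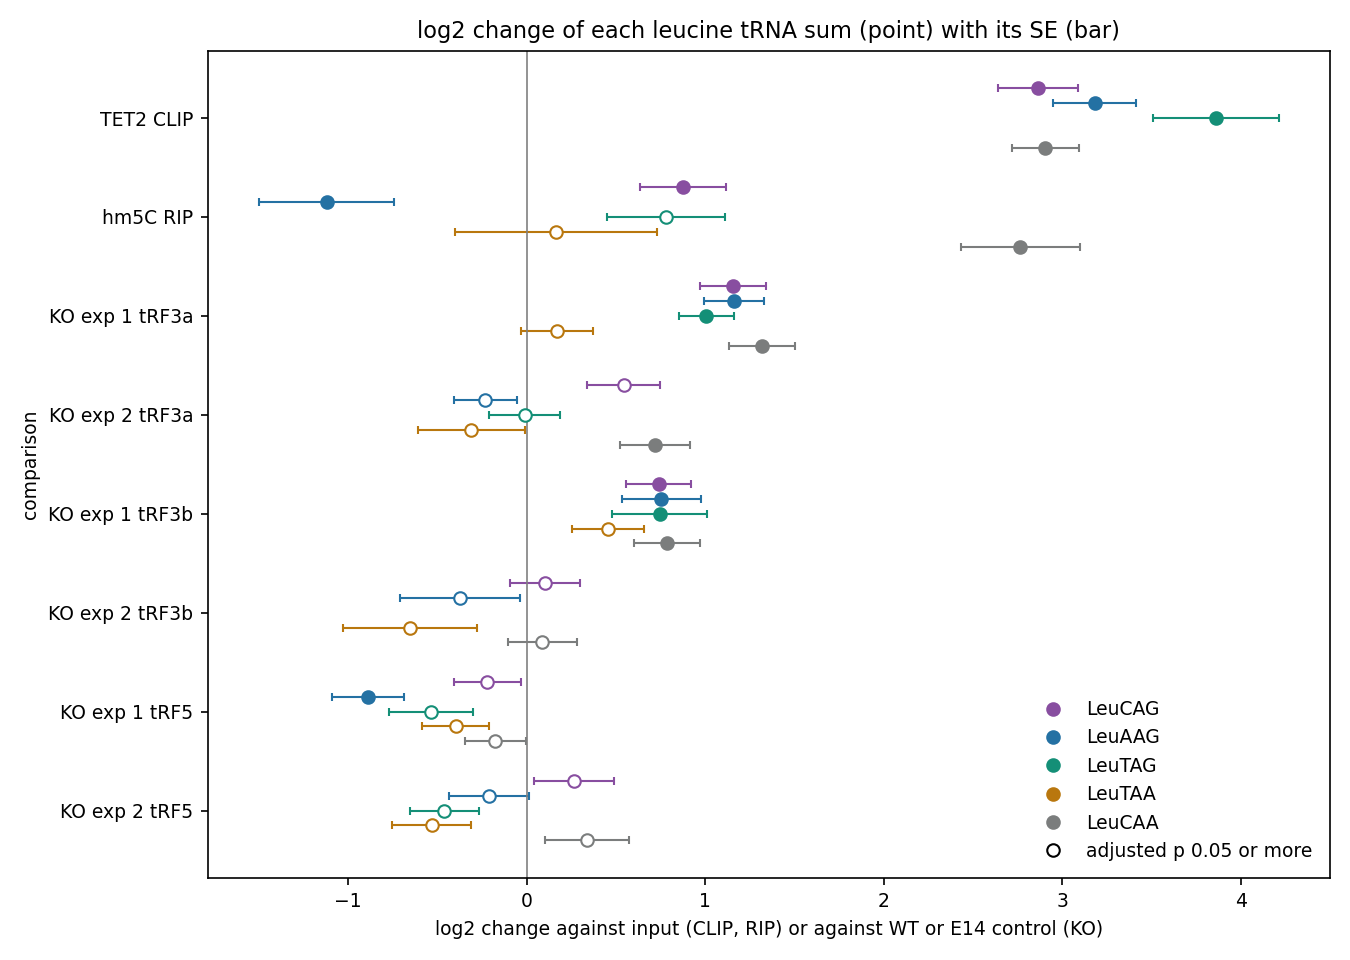
Log2 fold change (points, ± SE) of each leucine isoacceptor in TET2 CLIP over input, hm5C RIP over input, and Tet2 KO over control for each fragment kind and experiment; open points have an adjusted p of 0.05 or more. LeuAAG is at 3.18 in CLIP, -1.12 in RIP and 1.16 in tRF3a of experiment 1, and sums that were not tested are absent.

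Genes that modify, charge, cut or carry tRNAs were read from a list of 41. In TET2 CLIP 36 were tested, of which 3 were higher and 2 lower, beside 8.99% of all features higher and 5.83% lower, with a median log2 fold change of -0.20 beside -0.03; the shares are near the background. Dicer1, the RNase III that cuts small RNA precursors, averaged 186 ± 53.0 CPM in TET2 CLIP and 116 ± 4.81 CPM in input (SD, n = 4 each; 0.66, SE 0.14, adjusted p = 0.00124). Elac2, the tRNA 3′ processing nuclease (0.89, adjusted p = 0.0286), and Tet3, another methylcytosine dioxygenase (0.90, adjusted p = 0.00392), were also higher. The calls did not hold in clone 75 alone, where the adjusted p was 0.236 for Dicer1, 0.446 for Tet3 and 0.0802 for Elac2; in clone 65 alone it was 0.00266 for Dicer1, 0.00307 for Tet3 and 0.264 for Elac2. The row labelled Lars2, the gene of the mitochondrial leucyl-tRNA synthetase, averaged 3384 ± 267 CPM in TET2 CLIP and 16521 ± 6178 CPM in input (SD, n = 4 each; -2.22, adjusted p = 8.99e-14), and Eef1a1, the factor that brings charged tRNA to the ribosome, was at -0.77 (adjusted p = 5.9e-05). The Lars2 row had 603 to 62457 counts a library, beside 4 to 249 for Lars, and which stretch of the gene its reads came from was not tested, so the value is given for the row as listed. The cytosolic synthetase gene Lars (-0.29), the methyltransferase gene Nsun2 (-0.22) and Tet2 itself (-0.01) did not pass. In the RIP 6 of the 41 were tested and 1, the tRNA guanine methyltransferase gene Trmt1, was higher (2.44, adjusted p = 0.00432), beside 33.0% of features.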

How the data were processed

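Counts per gene and tRNA (CLIP, RIP) and per tRNA gene and fragment kind (small RNA) were used as deposited, whole numbers with no normalisation. Per the submitters' processing notes the authors worked with mm10 and with Bowtie2 2.2.6, STAR 2.5.3a, UMI-tools and cutadapt; what each did, the counting tool, the treatment of reads that match several tRNA copies, the strand setting and the definition of the fragment kinds are not given in the sources used here. The counting interval printed covers counting error only. Over 18 replicate pairs chi-square ran between 1.66 and 29.3 per degree of freedom, so no pair was taken for 1 library deposited again. Groups follow the labels. The tests were edgeR 4.0.16's quasi-likelihood test (TMM, filterByExpr, robust; R 4.3.3) on single rows and on sums by anticodon, with Benjamini-Hochberg adjustment over all rows of each table, and exact permutation of the log2 ratio to LeuCAA (0.5 added). The filter kept rows above 14.6 CPM in CLIP, 2.97 CPM in the RIP and 72.9 to 86.9 CPM in the fragments, the number of libraries required being the size of the smallest group. On simulated counts, edgeR recovered 61.1% of changes of 1 on the log2 scale in CLIP with both clones (9194 features), 24.4% in the RIP (1788 features), 70.8% in fragment experiment 1 (568 features) and 75.3% in experiment 2 (470 features), with 10.5% false calls in CLIP, 6.80% in the RIP, 3.59% in experiment 1 and 2.22% in experiment 2. Alternatives were DESeq2 1.42.0, library size and DESeq2 scaling, no filter, a replicate block, leaving out each library and, for the RIP, leaving out Acsl6. Genes were named as the most counted copy of each isoacceptor and, per comparison, up to 20 called members by adjusted p. Members, gene lists and tests were chosen with earlier results of these data known. Positions and lengths are RefSeq's, GRCm38.p6, matched by chromosome and anticodon.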

Additional observations from a re-analysis of the deposited data

Results flagged for a closer look

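A difference between 2 groups under the same contrast is given here for 7 leucine results, each by an interaction test adjusted over all features. Between the CLIP clones (75 minus 65) it was the LeuCAG sum, at -1.63 on the log2 scale (adjusted p = 0.0304), with both clones above input; it did not hold with library size scaling (adjusted p = 0.129). Between the small RNA experiments (2 minus 1) it was 2 sums and 4 single rows. The sums, which may share reads, were LeuAAG tRF3a at -1.33 (adjusted p = 0.00191) and LeuTAG tRF3a at -0.96 (adjusted p = 0.0166, and 0.0786 without E14 replicate 1). The single rows were the 4 of smallest p among the 22 called, in a fit whose median over all rows was -0.39. Of these, tRF3a of chr7.tRNA561-LeuAAG differed by -2.38 (adjusted p = 0.00137), tRF3a of chr11.tRNA2021-LeuAAG by -1.96 (adjusted p = 0.00234) and tRF3a of chr13.tRNA62-LeuAAG by -1.90 (adjusted p = 0.00396). The chr11.tRNA2021-LeuAAG call was lost in 5 of 12 fits that left out 1 library and with library size scaling (-1.75, adjusted p = 0.0545), the chr13.tRNA62-LeuAAG call in 6 of 12 and with that scaling (-1.69, adjusted p = 0.0623), and the chr7.tRNA561-LeuAAG call in none of the alternatives run. The only positive one was tRF5 of chr13.tRNA1003-LeuTAA, at 3.88 (adjusted p = 0.00515), on 0 to 15 counts a library, a row that reached the count filter in the 3 WT libraries alone.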

How the results depend on the processing

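Of 202 single results, 2672 alternative values were computed: 2223 stayed on their side of the threshold, 395 kept direction and lost the call, 53 gained it and 1 value of a called result changed sign, LeuAAG in the RIP without Acsl6 and scaled by library size (0.51, adjusted p = 0.288). Of the 2223, 67 values of 28 results not past the threshold also changed sign. Of 476 alternative values of 48 counts, 376 were within 1.5 times. The cause of each change below was not tested. Scaling by library size gave 0 lower sums in the clone difference, in fragment experiment 1 and in both experiments joined, 1 higher sum in experiment 2, and 2 higher and 0 lower sums in the RIP, as did DESeq2 size factors; without Acsl6 it gave 3 higher and 0 lower sums and 6 higher genes, and TMM without Acsl6 1 lower gene. For single rows, library size gave 1 lower in experiment 1, 0 in experiment 2, 1 in both joined and 1 in the difference of experiments; for the tRNA list it gave 1 higher and 6 lower in clone 65, 2 higher in clone 75, and 4 higher and 0 lower in the clone difference. DESeq2 size factors gave 2 lower rows in experiment 2, and 10 lower rows and 5 lower sums in the difference. DESeq2's test gave 2 lower rows in experiment 2 and 0 higher in the difference, where the tRF5 row of chr13.tRNA1003-LeuTAA had no adjusted p. No count filter gave 5 higher genes in clone 75, 0 higher and 1 lower in the RIP, 2 lower rows in experiment 2 and 5 lower in the difference.

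Same-numbered libraries did not deviate together in CLIP (correlations of deviations -0.008 and 0.018) or in the RIP (0.022). In the fragments the correlations were of both signs, from -0.352 to 0.279, the highest for replicate 3 of experiment 2. The replicate numbers were therefore not taken as pairs. With a replicate block 4 genes were higher in clone 75, the clone difference had 0 lower sums, and lower rows numbered 1 in experiment 1, 0 in experiment 2, 1 in both joined and 11 in the difference.

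Leaving out each library in turn gave, in single rows, 4 to 8 higher in clone 65, 1 to 8 higher in clone 75, 0 to 3 higher and 0 to 2 lower in the RIP, 1 to 6 lower in experiment 1, 1 to 3 higher and 0 to 1 lower in experiment 2, 12 to 20 higher and 0 to 3 lower in both joined, and 1 to 3 higher and 1 to 21 lower in the difference. In sums it gave 0 to 3 lower in the clone difference, 0 to 2 higher and 0 to 1 lower in the RIP, 1 to 2 lower in experiment 1, 0 to 1 higher in experiment 2, 0 to 3 lower in both joined, and 0 to 1 higher and 1 to 6 lower in the difference. The ratios to LeuCAA kept their calls throughout. For depth, 3 counts equal 6.61 to 13.6 CPM of a TET2 CLIP library and 17.3 to 31.2 CPM of a small RNA library.

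Library size against TMM moved called rows from 929 higher and 602 lower to 808 higher and 922 lower in CLIP, from 34 higher and 229 lower to 638 higher and 104 lower in the clone difference, from 127 higher and 100 lower to 166 higher and 51 lower in experiment 1, and from 18 higher and 96 lower to 14 higher and 1 lower in the difference of experiments.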
